A study of Mus musculus with 5 samples.

Results

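The cells described here are the CD8 T cells of SSM2 mammary tumours that carried transcripts of the naive program and none of the cytotoxic genes Ccl5 and Nkg7. They were chosen from all 5 deposited matrices by unique molecular identifier (UMI) counts. A member had at least 1500 UMIs, fewer than 0.3% of them from the epithelial genes Krt8, Krt18, Krt19 and Epcam. It had at least 2 UMIs of Cd3e, Cd3d and Cd3g together, at least 2 of Cd8a and Cd8b1 together and at least 2 of Lef1 and Tcf7 together. It had no UMI of Cd4, Foxp3, Ccl5, Nkg7 or Cd79a. Of 24022 barcodes, 293 met the rule (1.22%), and they are called naive CD8 T cells below.

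CD8 T cells recognise peptides on MHC class I molecules and, once activated, kill the cells that present them. A naive cell has not yet met its antigen, and it circulates between blood and lymphoid tissue under receptors such as Ccr7 and S1pr1. The factors Lef1, Tcf7, Satb1, Foxp1 and Bach2 hold it in a resting state, and on activation it gains granzymes, interferon-gamma and chemokines such as Ccl5.

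SSM2 is a cell line from a mouse mammary tumour. In all groups the animals, aged 10 to 12 weeks, received 100000 tumour cells in a mammary gland of the left side and a 60 mg pellet that releases its content over 60 days. The pellet held progesterone, a steroid hormone, in the libraries Progesterone 1, Progesterone 2 and Progesterone 3, and placebo in Placebo 1 and Placebo 2. Tumours were taken 28 to 62 days later and dissociated, and droplet libraries reading the 3' ends of transcripts were made. By the titles, batch 1 held Progesterone 1 and Placebo 1, and batch 2 held Progesterone 2, Progesterone 3 and Placebo 2. The host strain is not given in the sources used here. The labels do not say that libraries came from separate animals, and 2 of the names, those of Progesterone 2 and Progesterone 3, carry one identifier with an L or an R after it. The p-values therefore measure only how far these libraries spread, and that spread may be technical.

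The 293 cells lay very unevenly over the libraries. There were 12 in Progesterone 1 and 272 in Placebo 1 of batch 1. Batch 2 gave 2 in Progesterone 2, 0 in Progesterone 3 and 7 in Placebo 2. Placebo 1 alone held 92.8% of them, so most of what follows describes that library. The member cells held 119373 UMIs in Progesterone 1 and 2510036 in Placebo 1, but only 8921 in Progesterone 2 and 36179 in Placebo 2. The median member had 10517 UMIs in Progesterone 1 against 8903 in Placebo 1, and 4461 in Progesterone 2 against 5005 in Placebo 2. Libraries shared 2 to 12 barcodes in each of 10 pairs, and no member's barcode was among them.

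Placebo 1 also stood apart in the rest of its cells. Gated T cells, by the same limits on UMIs, epithelial genes, Cd3 and Cd79a, made up 21.2% of barcodes over 1500 UMIs in Progesterone 1 and 86.2% in Placebo 1. They made up 0.734% in Progesterone 2, 1.09% in Progesterone 3 and 2.25% in Placebo 2. The naive CD8 share of T cells varied less than the number of cells. It was 3.04% in Progesterone 1 (exact 95% interval 1.58% to 5.25%) and 6.68% in Placebo 1 (5.93% to 7.49%). It was 5.56% in Progesterone 2 (0.680% to 18.7%) and 5.74% in Placebo 2 (2.34% to 11.5%). Progesterone 3 had none among 53 T cells, with an exact 95% upper limit of 6.72%. Intervals and limits for a count of 0 cover counting error only.

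**Figure D1:**
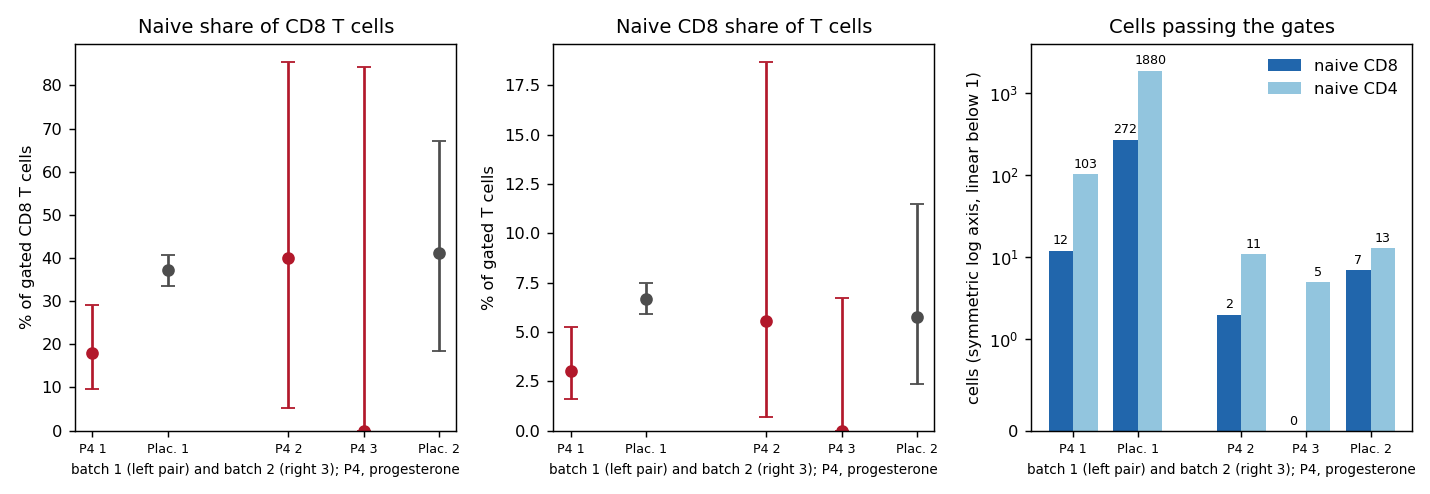
Naive CD8 T cells by library, progesterone (P4) libraries left of the placebo library of their batch. The left and middle panels give shares with exact 95% intervals, and the right panel gives numbers of cells on a symmetric log axis, 12 in Progesterone 1 against 272 in Placebo 1.

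The genes of the rule are given as a description. Lef1, a transcription factor of the Wnt pathway and of naive T cells, stood at 2589 CPM (UMIs per 1000000 UMIs of the summed cells) in Progesterone 1 against 2559 in Placebo 1, and at 2354 in Progesterone 2 against 1658 in Placebo 2. Cd8b1, the beta chain of the CD8 co-receptor, had 427 CPM in Progesterone 1 against 288 in Placebo 1, and 224 in Progesterone 2 against 553 in Placebo 2. Its alpha chain Cd8a had 184 CPM in Progesterone 1 against 177 in Placebo 1, and 224 in Progesterone 2 against 193 in Placebo 2. The 2 members of Progesterone 2 rest on 2 UMIs of each chain. Per cell of Placebo 1, Lef1 ranged over 1 to 95 UMIs with a median of 19, Cd8a over 0 to 7 with a median of 1, and Cd8b1 over 0 to 13 with a median of 2. In the gated CD8 cells, the limit on Lef1 and Tcf7 took out none with Ccl5 and Nkg7 at 0, and only 2 members of Placebo 1 had 2 to 4 UMIs of the pair. Around the limit on the CD8 chains, 73 members of Placebo 1 had exactly 2 of these UMIs and 2616 CPM of Lef1, and 83 cells just outside, with 1 such UMI, had 2742 CPM.

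Themis, a regulator of T cell receptor signalling and a marker the rule did not use, had 1910 CPM in Progesterone 1 against 1237 in Placebo 1, and 1906 in Progesterone 2 against 359 in Placebo 2. All 12 members of Progesterone 1 and 260 of 272 in Placebo 1 had a UMI of it. All 4 markers of the label, Cd8a, Cd8b1, Lef1 and Themis, were found in each library that held members.

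Markers of other cell types were not all low in batch 1. Regulatory T cell markers summed to 235 CPM in Progesterone 1 against 179 in Placebo 1, of which Ikzf2 had 176 and 86.9. Those of fibroblasts and endothelium summed to 184 CPM in Progesterone 1 against 110 in Placebo 1. Pecam1 gave 21 of 22 and 274 of 275 of these UMIs. Natural killer, neutrophil and dendritic cell markers summed to 25.1, 58.6 and 8.38 CPM in Progesterone 1. In Placebo 1 they summed to 7.57, 11.6 and 43.0 CPM. Of the CD4 lineage, Zbtb7b, the factor that sets it, was at 0 in all 4 libraries with members, and Cd40lg had 5 UMIs in all, in Placebo 1. Of 7 thymocyte markers, Rag1, Rag2 and Ptcra had no UMI in any library. The receptor Ccr9, also on that list, had 4 UMIs in Progesterone 1 and 84 in Placebo 1, and Sox4, Cd24a and Dntt had 0 in Progesterone 1 and 15, 12 and 5 in Placebo 1. The red cell and platelet markers had no UMI. Summed over 9 epithelial markers, of which 3 or 4 were at 0 in each library, the members had 67.0 CPM in Progesterone 1 against 6.77 in Placebo 1, but 1569 in Progesterone 2 against 1354 in Placebo 2. For 8 B cell markers the sums were 209 CPM in Progesterone 1 against 16.7 in Placebo 1, and 0 in Progesterone 2 against 55.3 in Placebo 2. For 10 macrophage and monocyte markers they were 117 CPM in Progesterone 1 against 12.0 in Placebo 1, and 0 in Progesterone 2 against 166 in Placebo 2. Cd79a, at 0 by the rule, and Ms4a1, C1qb, C1qc, Adgre1 and Mrc1 were at 0 in all 4 libraries. The part of this other RNA in the values of batch 2 was not tested.

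The rule cut a continuous range of Nkg7. In Placebo 1, 733 CD8 T cells passed the limits other than those on Lef1, Tcf7, Ccl5 and Nkg7; 272 had no UMI of Ccl5 or Nkg7, 208 had exactly 1 and 253 had 2 or more. Of these 253 cells, 202 had no UMI of Ccl5. The members had 2559 CPM of Lef1 and 398 CPM of Ccr7, against 2179 and 397 CPM in these 202 cells. In contrast, the 38 CD8 cells of Placebo 1 with at least 2 UMIs of Ccl5 had 752 CPM of Lef1 and 161 of Ccr7. Nkg7 is a granule protein of cytotoxic cells. In Progesterone 1, Lef1, itself a gene of the rule, stood at 2589 CPM in the members. It had 704 CPM in the 17 cells with 2 or more UMIs of the pair and none of Ccl5. The 26 cells with at least 2 UMIs of Ccl5 had 211 CPM. Ccr7 did not follow Lef1 there, at 193 CPM in the members against 238 in the 17 cells. It had 551 CPM in the 10 cells with 1 UMI of the pair and 29.2 in the 26 cells. The median depths of the 3 sets of Placebo 1 were 8903 UMIs in the members, 10685 in the 202 cells and 10743 in the 38 cells. The CD8 cells of Placebo 1 with 1 UMI of the pair had 94.3 CPM of Nkg7, a level fixed by their selection. The B cells of that library, not selected on Nkg7, had 0.884 CPM, so these values cannot be compared.

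**Figure D2:**
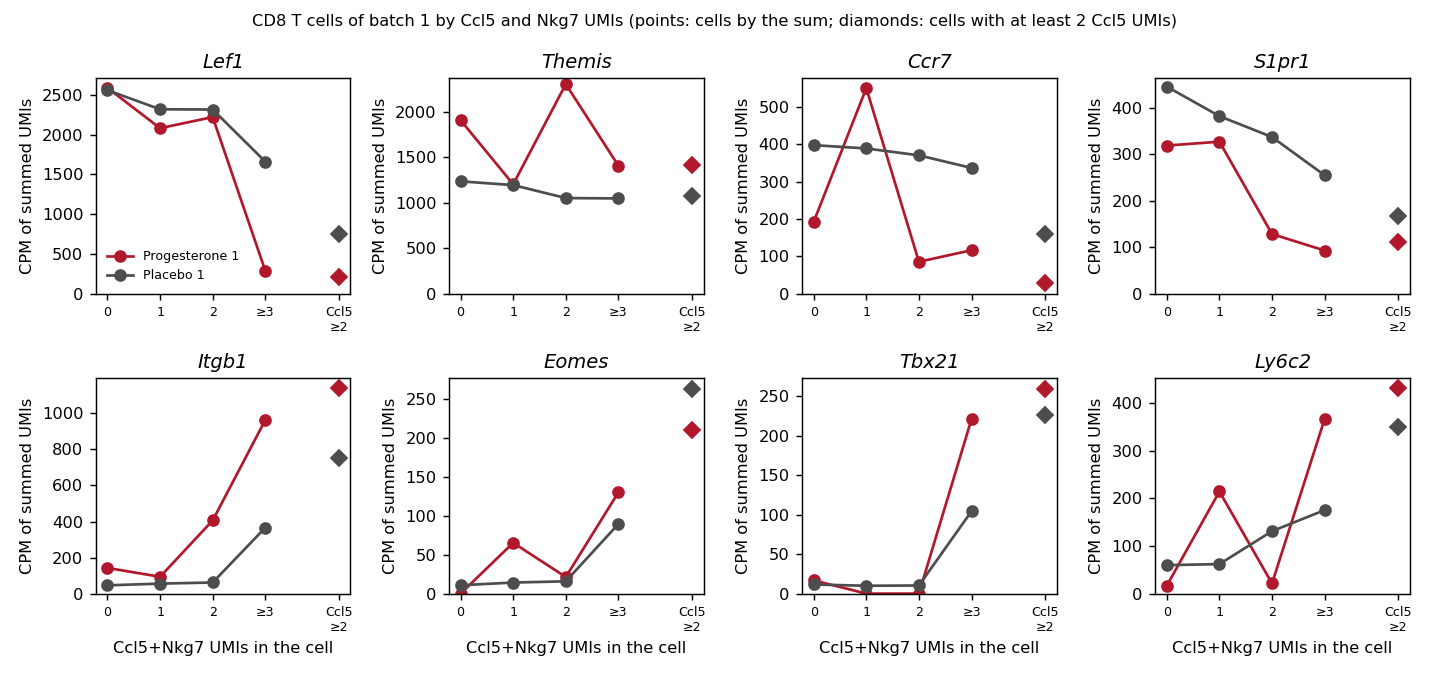
CPM of 8 genes in CD8 T cells of batch 1, grouped by the cell's summed Ccl5 and Nkg7 UMIs (0, the naive CD8 T cells, to 3 or more) or by at least 2 Ccl5 UMIs (diamonds). In Placebo 1, Ccr7 stood at 398, 389, 371 and 337 CPM from 0 to 3 or more, against 161 CPM in the Ccl5 class.

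Against the CD8 cells with 2 or more UMIs of Ccl5 and Nkg7 (45 in Progesterone 1, 253 in Placebo 1), the naive CD8 cells were lower in cytotoxic genes and showed no called difference in naive genes. Of 8374 genes tested in edgeR's quasi-likelihood fit of summed UMIs in the 2 libraries of batch 1, with the library as a block, 20 passed an adjusted p of 0.05 (0.239%), none higher and 20 lower in naive CD8 cells. The genes of the rule were left out of all such tests, but the other genes come from the cells it split. At an unadjusted p under 0.05 there were 287, and DESeq2 called 14. Among 22 listed cytotoxic genes 19 were tested, 9 were lower and their median log2 ratio was -2.84, against -0.04 over all genes tested. Gzmb, the protease granzyme B, had 0 CPM in Progesterone 1 and 0.398 in Placebo 1 in naive cells, against 28.9 and 87.8 CPM in the Ccl5 and Nkg7 cells (log2 ratio -7.53 ± 0.86 SE, edgeR adjusted p = 0.00172). Tbx21, the factor that drives type 1 effector cells, had 16.8 CPM in Progesterone 1 and 11.6 in Placebo 1 in naive cells, against 202 and 64.1 CPM in the Ccl5 and Nkg7 cells (log2 ratio -2.70 ± 0.43, edgeR adjusted p = 0.0246). Itgb1, an integrin chain of memory cells, had 142 CPM in Progesterone 1 and 45.8 in Placebo 1 in naive cells, against 916 and 236 CPM in the Ccl5 and Nkg7 cells (log2 ratio -2.45 ± 0.28, edgeR adjusted p = 0.00172). The 10 lowest genes were Klrc1, Gzma, Gzmb, Arsb, Cables1, Zeb2, Xcl1, Plek, Runx2 and Ccl4, at log2 ratios of -7.96 to -3.67. Of 19 tested genes of naive homing and quiescence none passed, and their median log2 ratio was 0.67. The fit has 1 residual degree of freedom, and without the library block none of the 8374 genes passed in edgeR, with 238 at an unadjusted p under 0.05. In fits of libraries with at least 3 cells of both classes, 0 of 1552 genes passed without Placebo 1 (118 at an unadjusted p under 0.05) and 19 of 7517 without Progesterone 1.

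A comparison chosen after the data were seen set the naive CD8 cells against the CD8 cells with at least 2 UMIs of Ccl5 (26 in Progesterone 1, 38 in Placebo 1). There the naive homing program was higher in naive CD8 cells and the cytotoxic, memory and checkpoint genes were lower. Of 5055 genes tested 359 passed (7.1%), 156 higher (3.09%) and 203 lower (4.02%). For naive homing and quiescence 12 of 18 tested genes were higher and none lower, with a median log2 ratio of 1.42 against -0.00 over all genes tested. Among them were Igfbp4, Dapl1, Satb1, Ccr7, Actn1, Bach2, Foxp1, S1pr1, Klf2, Txk and Il7r.

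Ccr7, the receptor that leads T cells into lymph nodes, had 193 CPM in Progesterone 1 and 398 in Placebo 1 in naive CD8 cells, against 29.2 and 161 CPM in the Ccl5 cells (log2 ratio 1.82 ± 0.36 SE, edgeR adjusted p = 1.9e-05). Within each library the naive cells were higher, although the naive cells of Progesterone 1 were near the Ccl5 cells of Placebo 1. Satb1, a chromatin organiser of T cells, had 2681 CPM in Progesterone 1 and 3081 in Placebo 1 in naive cells, against 613 and 1195 CPM in the Ccl5 cells (log2 ratio 1.83 ± 0.23, edgeR adjusted p = 8.85e-13). Igfbp4, a secreted protein that binds insulin-like growth factors, had 159 CPM in Progesterone 1 and 70.1 in Placebo 1 in naive cells, against 0 and 8.24 CPM in the Ccl5 cells (log2 ratio 4.36 ± 0.67, edgeR adjusted p = 9.84e-09). Igf1r, the receptor of that growth factor, had 427 CPM in Progesterone 1 and 387 in Placebo 1 in naive cells, against 3.25 and 86.5 CPM in the Ccl5 cells (log2 ratio 3.27 ± 0.37, edgeR adjusted p = 6.36e-16). For both growth factor genes each naive value lay above each Ccl5 value. The share of all tested genes that separate so was not counted.

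Cytokine receptors also differed. Of 14 tested, Il6ra and its signalling partner Il6st, Il7r and Tgfbr2 were higher in naive CD8 cells and none was lower. In naive cells Il6ra had 168 CPM in Progesterone 1 and 57.0 in Placebo 1, against 16.2 and 10.3 CPM in the Ccl5 cells (edgeR adjusted p = 1.85e-05). Ifngr2, a chain of the interferon-gamma receptor, had 302 CPM in Progesterone 1 and 296 in Placebo 1 in naive cells, against 9.74 and 49.4 CPM in the Ccl5 cells (log2 ratio 3.35 ± 0.41, edgeR adjusted p = 7.65e-14). The remaining genes among the 10 highest were Dip2c, Gria3, Zc3h12b, Dtx1, Siah3 and Spon1, at log2 ratios of 2.96 to 5.33.

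On the lower side, 15 of 18 cytotoxic genes, 9 of 10 memory-phenotype genes and 5 of 5 checkpoint genes passed, with median log2 ratios of -4.22, -2.80 and -2.38. Gzma, granzyme A, had 1 UMI in the members of Placebo 1, against 211 UMIs in its Ccl5 cells, and was 1091-fold lower with a counting interval of 194-fold to 43287-fold. Klrc1, a receptor chain that pairs with Klrd1, had no UMI in the members and was at least 41.4-fold lower in Placebo 1, taking 3 counts per library as the limit. The other 8 of the 10 lowest were Gzmk, Lrrk1, Gzmb, Arsb, Zeb2, Cables1, Rnf43 and A930011G23Rik, at log2 ratios of -8.66 to -5.81. Eomes, a factor of memory cells, had 0 CPM in Progesterone 1 and 10.8 in Placebo 1 in naive cells, against 211 and 264 CPM in the Ccl5 cells (log2 ratio -4.69 ± 0.50, edgeR adjusted p = 3.18e-18). Among 9 tested trafficking and 6 tested residency genes, Cxcr3, Ccr2, Cxcr6, Gpr183, Itga1 and Rgs1 were lower in naive CD8 cells, while Ccr9, Ccr7 and S1pr1 were higher. The tested glucocorticoid and progesterone response genes had 3 of 10 higher, Klf9, Tsc22d3 and Il7r, and none lower. Of 21 immediate early and heat shock genes 2 were lower, the copies Hspa1a and Hspa1b. Fcer1g and Tyrobp, adaptor chains of natural killer cells, were the 2 tested markers of that cell type, and both were lower in naive CD8 cells, at log2 ratios of -5.38 and -3.88; the part of such cells in the Ccl5 class was not tested. Without the library block 108 genes passed, 27 higher and 81 lower, and DESeq2 with the block called 33 higher and 71 lower.

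**Figure D3:**
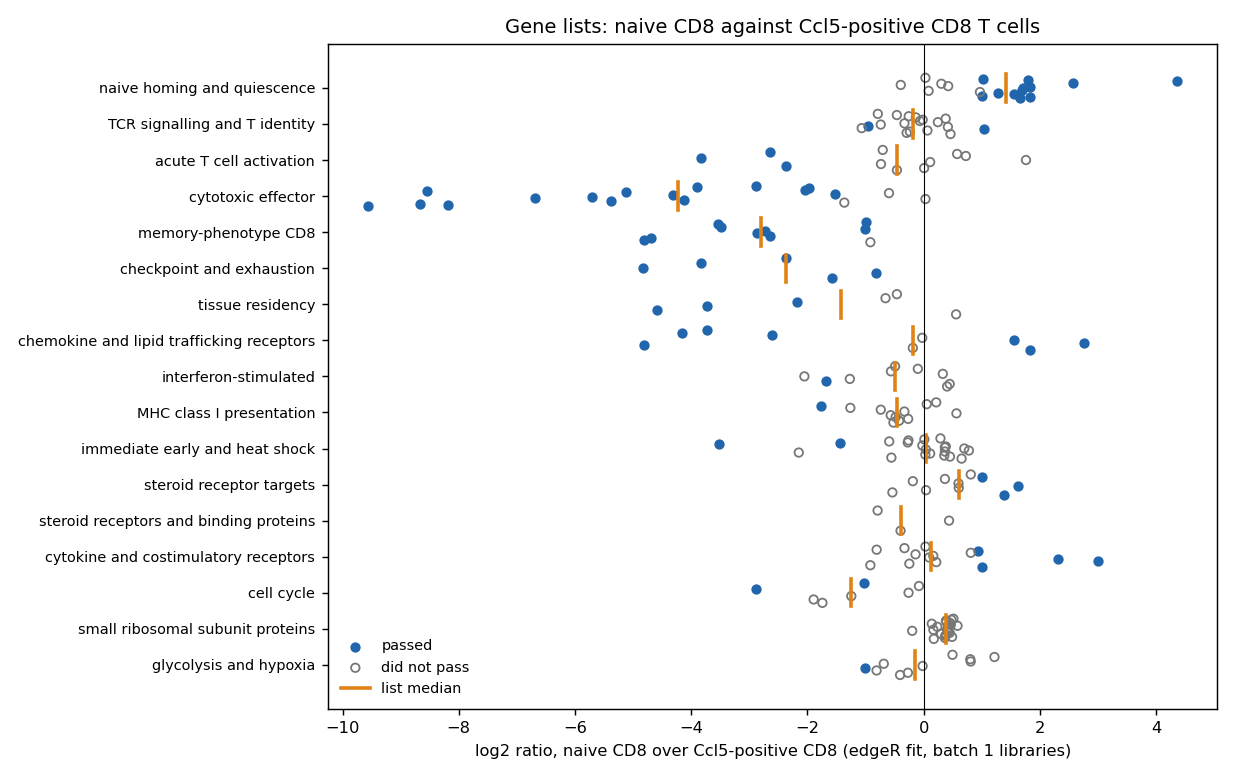
Log2 ratio of naive CD8 over Ccl5-positive CD8 T cells for each tested gene of 17 lists (filled, edgeR adjusted p under 0.05; open, not; bar, list median). The list of naive homing has its median at 1.42 and the cytotoxic list at -4.22.

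The naive CD8 cells were also set against naive CD4 T cells, gated alike on Lef1, Tcf7, Ccl5 and Nkg7 but with Cd4 and without the CD8 chains (103 cells in Progesterone 1, 1880 in Placebo 1, 13 in Placebo 2). The homing genes of naive cells, Igfbp4 excepted, did not pass between the classes, while genes of the CD8 and CD4 lineages did. Of 8476 genes tested in batch 1, 181 passed (2.14%), 76 higher (0.897%) and 105 lower (1.24%) in naive CD8 cells. Naive homing and quiescence had none higher and 1 lower of 19, Igfbp4, with a list median of 0.02 against -0.04 over all genes tested. T cell receptor signalling and identity had 3 higher (Runx3, Themis, Ptpn22) and 5 lower (Runx1, Gata3, Cd5, Cd28, Fyb) of 18.

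The factors that set the lineages lay on opposite sides. Runx3, which silences Cd4 in CD8 cells, had 494 CPM in Progesterone 1, 292 in Placebo 1 and 470 in Placebo 2 in naive CD8 cells, against 92.9, 62.1 and 54.2 CPM in naive CD4 cells (log2 ratio 2.29 ± 0.25 SE in batch 1, edgeR adjusted p = 2.25e-17). Naive CD8 cells were higher in each of the 3 libraries, although the 2 members of Progesterone 2 had no UMI of Runx3. Runx1, its relative, had 494, 299 and 332 CPM in naive CD8 cells of the same libraries, against 1390, 1047 and 961 CPM in naive CD4 cells (log2 ratio -1.70 ± 0.17, edgeR adjusted p = 5.37e-21). Zbtb7b, which sets the CD4 lineage, had no UMI in naive CD8 cells, against 20.4 CPM in Progesterone 1 and 10.2 in Placebo 1 in naive CD4 cells, and was at least 8.51-fold lower in naive CD8 cells of Placebo 1 (edgeR adjusted p = 0.000235). Gata3, a further CD4 lineage factor, had 126, 39.0 and 111 CPM in naive CD8 cells, against 306, 93.5 and 176 CPM in naive CD4 cells (log2 ratio -1.28 ± 0.29, edgeR adjusted p = 0.000929).

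Promoters of genes at this boundary are shown because Runx proteins bind the hexamer TGTGGT, read ACCACA on the other strand. Capitals mark each match, and each stretch runs from 250 bases before to 50 after a RefSeq start site on the GRCm38.p6 build, read in the gene's direction. The genes are Cd8a, the start site of Runx3 that lies farther upstream, Zbtb7b at the one of its start sites with a match, and Nkg7, whose UMIs the rule used.
Cd8a: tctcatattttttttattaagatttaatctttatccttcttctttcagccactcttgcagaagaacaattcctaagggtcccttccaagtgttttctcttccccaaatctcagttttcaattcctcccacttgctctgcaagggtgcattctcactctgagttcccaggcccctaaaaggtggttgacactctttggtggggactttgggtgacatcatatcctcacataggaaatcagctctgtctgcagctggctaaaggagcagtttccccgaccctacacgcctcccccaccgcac
Runx3: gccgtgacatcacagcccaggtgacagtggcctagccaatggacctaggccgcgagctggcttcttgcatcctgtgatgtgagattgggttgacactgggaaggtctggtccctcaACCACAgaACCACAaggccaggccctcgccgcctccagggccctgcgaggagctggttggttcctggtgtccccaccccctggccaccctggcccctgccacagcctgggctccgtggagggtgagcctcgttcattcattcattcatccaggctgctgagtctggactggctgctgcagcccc
Zbtb7b: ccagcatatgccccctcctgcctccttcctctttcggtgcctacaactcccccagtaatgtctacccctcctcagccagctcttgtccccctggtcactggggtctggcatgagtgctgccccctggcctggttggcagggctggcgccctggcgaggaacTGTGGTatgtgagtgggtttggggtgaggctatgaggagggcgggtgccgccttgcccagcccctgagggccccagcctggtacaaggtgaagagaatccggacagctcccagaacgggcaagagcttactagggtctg
Nkg7: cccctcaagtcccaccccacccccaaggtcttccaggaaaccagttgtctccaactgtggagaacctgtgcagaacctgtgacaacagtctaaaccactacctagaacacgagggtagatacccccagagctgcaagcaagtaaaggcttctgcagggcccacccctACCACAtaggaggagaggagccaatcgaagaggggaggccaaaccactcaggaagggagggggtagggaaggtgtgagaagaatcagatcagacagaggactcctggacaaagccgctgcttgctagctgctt
The stretches lie at chr6:71373177-71373476 on the plus strand (Cd8a), chr4:135120395-135120694 on the plus strand (Runx3), chr3:89387622-89387921 on the minus strand (Zbtb7b) and chr7:43436888-43437187 on the plus strand (Nkg7). Runx3 has 2 matches, Zbtb7b and Nkg7 have 1 each and Cd8a has none in this window. The other start sites of Runx3 and Zbtb7b have no match. Among other genes higher in naive CD8 than naive CD4 cells, Ly6c2 has 1 match at each start site, and Themis, Ccr9 and Bend4 have none. Over 32851 RefSeq promoters of 300 bases, 16.8% hold the hexamer, and of 8603 promoters of tested genes 12.6% do. For genes higher in naive CD8 than in naive CD4 cells it was 21 of 97 promoters (21.6%, from 58 of 76 genes), and for genes lower 12 of 105 (11.4%, from 77 of 105 genes). The Lef1 and Tcf7 hexamer CTTTGA, or TCAAAG, was in 15.5% of the promoters of higher genes and 12.4% of those of lower genes, against 11.7% of those of tested genes and 16.0% of all. These are counts of letters, and a match of either motif can share its end base with a match of the other. They are shares of start sites and not of genes. A gene with several sites counts more than once, and its stretches can overlap.

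Several surface receptors were higher in naive CD8 cells. In the members of Placebo 2, 1 UMI is 27.6 CPM, so the values of Itgae and Il2rb there rest on few UMIs. Klrd1, the CD94 chain of a receptor for MHC class I, had 58.6 CPM in Progesterone 1, 98.4 in Placebo 1 and 249 in Placebo 2, against 4.64, 0.809 and 13.5 CPM in naive CD4 cells (log2 ratio 6.07 ± 0.64, edgeR adjusted p = 2.88e-18). After thinning each cell to 1500 UMIs, 13.2% of naive CD8 cells of Placebo 1 had a Klrd1 UMI, against 0.106% of naive CD4 cells and 0 of 126 B cells; unthinned it was 41.5%, 0.691% and 0.794% at median depths of 8903, 8653 and 8979 UMIs. Itgae, the integrin chain CD103, had 108.9, 62.2 and 55.3 CPM in naive CD8 cells of these libraries, against 14.9, 0.867 and 0 CPM in naive CD4 cells (log2 ratio 4.75 ± 0.60, edgeR adjusted p = 2.16e-12). Ccr9, a receptor for homing to gut and thymus and a member of the thymocyte list, had 33.5 CPM in both libraries of batch 1 and no UMI in Placebo 2 in naive CD8 cells, against 6.50, 1.45 and 0 CPM in naive CD4 cells (log2 ratio 3.96 ± 0.63, edgeR adjusted p = 1.13e-07). Il2rb, the shared receptor chain of interleukins 2 and 15, had 101, 98.0 and 55.3 CPM in naive CD8 cells, against 67.8, 17.6 and 40.6 CPM in naive CD4 cells (log2 ratio 1.78 ± 0.38, edgeR adjusted p = 0.000334).

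**Figure D4:**
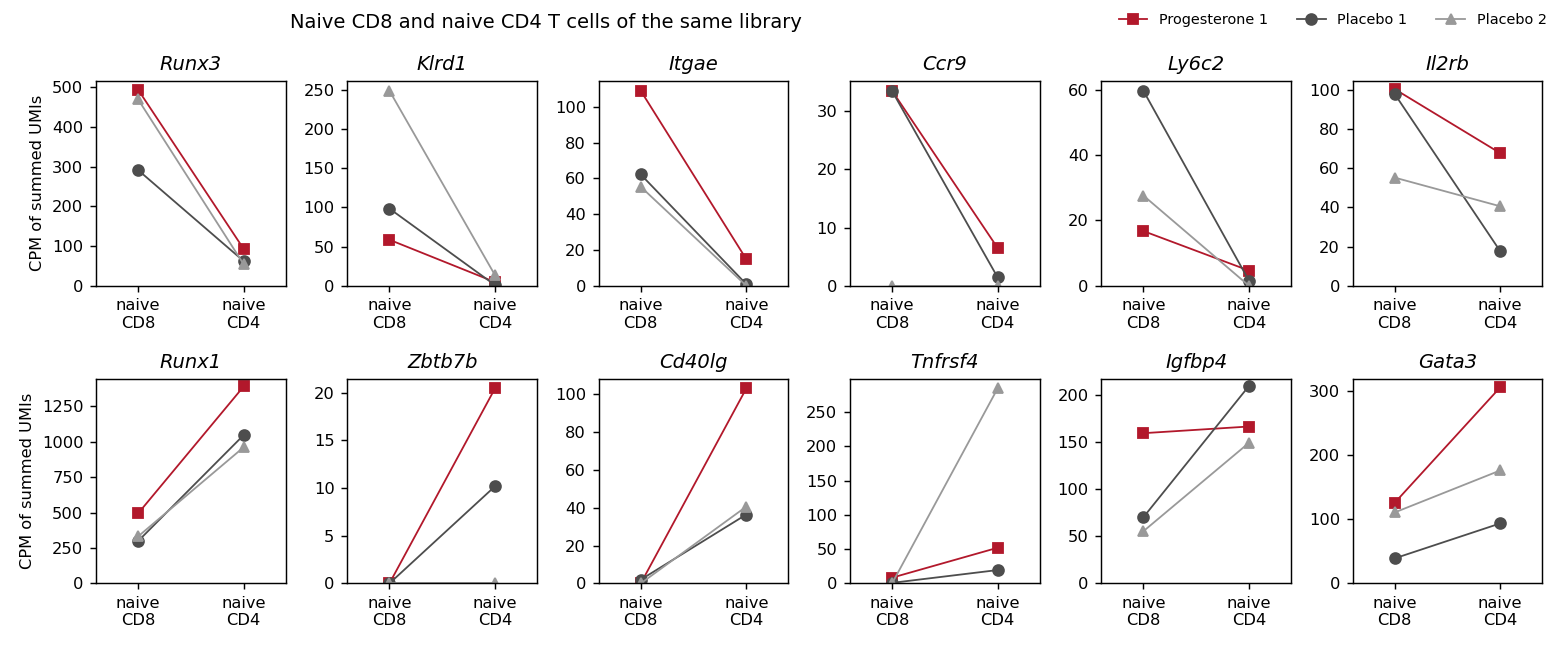
CPM of 12 genes in naive CD8 and naive CD4 T cells, each line 1 library (Progesterone 1, Placebo 1, Placebo 2). Runx3 lies at 292 to 494 CPM in naive CD8 and at 54.2 to 92.9 CPM in naive CD4 cells.

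The pair Ly6c2 and Ly6c1 went opposite ways in batch 1. In Placebo 2 the value of Ly6c2 in naive CD8 cells rests on 1 UMI. Ly6c2 had 16.8, 59.8 and 27.6 CPM in naive CD8 cells of Progesterone 1, Placebo 1 and Placebo 2, against 4.64, 1.56 and 0 CPM in naive CD4 cells (log2 ratio 4.57 ± 0.70, edgeR adjusted p = 2.56e-08). Ly6c1 had no UMI in naive CD8 cells of batch 1, against 23.2 CPM in Progesterone 1 and 24.3 in Placebo 1 in naive CD4 cells. These are near-identical copies, and how the counting split their reads is not given, so both values are uncertain. The others among the 10 highest were Bend4, Lcn4, Osbpl6, Racgap1, Gria3 and Syde2, at log2 ratios of 3.16 to 5.64.

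Cd40lg, St8sia6, Tnfrsf4 and Cd44 were lower in naive CD8 cells. The members of Placebo 2 hold 36179 UMIs, too few to tell their 0 of Cd40lg from the CD4 value there. Cd40lg, the ligand by which CD4 cells help B cells, had 0, 1.99 and 0 CPM in Progesterone 1, Placebo 1 and Placebo 2, against 103, 36.4 and 40.6 CPM in naive CD4 cells (log2 ratio -4.43 ± 0.67, edgeR adjusted p = 1.96e-08). St8sia6, a sialyltransferase, had 0 CPM in Progesterone 1 and 37.5 in Placebo 1 in naive CD8 cells, against 230 and 734 CPM in naive CD4 cells (log2 ratio -4.41 ± 0.30, edgeR adjusted p = 4.19e-45). Tnfrsf4, the co-stimulatory receptor OX40, had 8.38 CPM in Progesterone 1, 0.797 in Placebo 1 and 0 in Placebo 2 in naive CD8 cells, against 52.0, 19.5 and 284 CPM in naive CD4 cells. Cd44, an adhesion receptor that rises on activation, had 193 CPM in Progesterone 1, 23.5 in Placebo 1 and 0 in Placebo 2 in naive CD8 cells, against 524, 108 and 311 CPM in naive CD4 cells (log2 ratio -1.91 ± 0.26, edgeR adjusted p = 2.22e-10). In Placebo 1 a Cd44 UMI was found in 4.78% of naive CD8 cells, against 19.5% of naive CD4 cells, and the part of Cd44-bearing CD4 cells in the other differences was not tested. Pdlim4, Tnfrsf25, A630023P12Rik, Rnf43 and Epas1 completed the 10 lowest.

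Placebo 2 did not enter this fit and was set beside it for direction, as an addition after the data were seen. Of the 76 genes called higher, 37 had at least 5 UMIs in its 2 classes and 30 were higher in naive CD8 cells there. Of the 105 called lower, 80 had as many and 72 were lower. Of all tested genes, 1811 of 3675 were higher. The library block carried the number of calls: without it 1 gene, Phactr2, passed, and DESeq2 with the block called 50. In fits of libraries with at least 3 cells of both classes, 136 of 5889 genes passed with all 3 libraries, 48 of 1875 without Placebo 1 and 103 of 7694 without Progesterone 1.

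Among themselves, the members varied most in 10 genes of which 1, the survival factor Bcl2, is on the list of naive homing and quiescence. With each member thinned to 1500 UMIs, the variance over the mean of UMIs per cell was 8.31 for Rn45s, which holds ribosomal precursor RNA, and 5.63 for the zinc finger factor Trps1, against a median of 1.12 over 3812 genes. Within Placebo 1 alone the ratio was 5.22 for Rn45s and 5.86 for Trps1. Trps1 had a UMI in 14.0% of thinned members and up to 18 in 1 cell. Kcnq5, Pam and Ikzf2 were likewise in few members (9.22%, 6.14% and 5.46%) at ratios of 3.10 to 4.78. Malat1, Sidt1, Adk, Bcl2 and Ext1 were in 41.3% or more, at ratios of 2.82 to 4.80. Cd44, the activation marker, had a UMI in 3 of 12 members in Progesterone 1 and in 4.78% in Placebo 1, against 80.8% and 81.6% of the Ccl5 cells in those libraries. At 1500 UMIs per cell in Placebo 1 it was 2.57% of members, against 42.1% of the Ccl5 cells.

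The treatment question can be put to the naive share of CD8 cells in all 5 libraries. The share was 17.9% in Progesterone 1 (exact 95% interval 9.61% to 29.2%), against 37.1% in Placebo 1 (33.6% to 40.7%). In batch 2 it was 40% of 5 cells in Progesterone 2, 0 of 2 cells in Progesterone 3 and 41.2% of 17 cells in Placebo 2. The mean of the within-batch differences was -20.2 percentage points, progesterone minus placebo (exact permutation test within batches, 2-sided, p = 0.333, with 0.167 the smallest p that 6 arrangements allow). It was -10.2 points without Progesterone 3, -12.9 without cells that carry markers of another lineage, -41.1 with each cell thinned to 1500 UMIs, -40.3 with at most 1 UMI of Ccl5 and Nkg7 and -41.6 with Ccl5 at 0 and any Nkg7, a setting added after the data were seen. After thinning, Progesterone 2 kept no gated CD8 cell and was left out. Batch 2 then held 1 gated CD8 cell in Progesterone 3 and 3 in Placebo 2. The exact permutation p of all these settings ran from 0.333 to 0.833. With Ccl5 at 0 and any Nkg7, the share was 50.7% in Progesterone 1 against 91.5% in Placebo 1. In batch 2 it was then 80% in Progesterone 2, 0 of 2 cells in Progesterone 3 and 82.4% in Placebo 2.

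Progesterone 1 and Placebo 1 alone held 10 members or more, so expression by treatment rests on 1 library each and has no replicate check. The values below give CPM ratios with exact 95% counting intervals. Genes of the naive program did not go one way. Lef1, a gene of the rule, had 2589 CPM in Progesterone 1 and 2559 in Placebo 1 (ratio 1.01, 0.900 to 1.13), and Foxp1 had 2974 CPM in Progesterone 1 and 2998 in Placebo 1 (ratio 0.992, 0.889 to 1.10). In naive CD4 cells the same ratios were 0.623 for Lef1 (0.595 to 0.652) and 0.620 for Foxp1 (0.593 to 0.649). Bach2, a repressor that keeps T cells quiescent, had 637 CPM in Progesterone 1 and 856 in Placebo 1 (ratio 0.744, 0.584 to 0.935), and S1pr1 had 318 CPM in Progesterone 1 and 445 in Placebo 1 (ratio 0.715, 0.503 to 0.988). Igfbp4 had 159 CPM in Progesterone 1 and 70.1 in Placebo 1 (ratio 2.27, 1.33 to 3.65). Ccr7 was lower, at 193 CPM in Progesterone 1 and 398 in Placebo 1 (ratio 0.484, 0.305 to 0.731), and its ratio in naive CD4 cells was 0.570 (0.504 to 0.642). Klf2, a factor of quiescence, had 1491 CPM in Progesterone 1 and 754 in Placebo 1 (ratio 1.98, 1.69 to 2.31), but 1 member of Progesterone 1 alone had 8696 CPM.

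Heat shock gene Hspa1b showed the widest gap. It encodes an inducible chaperone and had 603 CPM in Progesterone 1 and 7.17 in Placebo 1 (ratio 84.1, 49.6 to 150), with a UMI in 5 of 12 members of Progesterone 1. Progesterone 2 had 3 UMIs (336 CPM) and Placebo 2 had 1 (27.6 CPM), so the order in batch 2 rests on few UMIs. The share of all genes that separate the treatments in this way was not counted. Other classes went the same way: naive CD4 cells had 405, 1123 and 20.1 CPM in Progesterone 1, 2 and 3, against 17.3 and 0 CPM in Placebo 1 and 2. The values of Progesterone 2 and 3 rest on 11 and 5 cells, and that of Progesterone 3 on 1 UMI. These 5 cells also had 15229 CPM of B cell markers, whose part in the value was not tested. B cells had 247, 287 and 399 CPM in the progesterone libraries, against 7.07 and 11.2 CPM in the placebo libraries. These values rest on 192, 11 and 1 B cells in Progesterone 1, 2 and 3, and on 126 and 44 in Placebo 1 and 2. Hspa1a is a near-identical copy, so the split of reads between the pair is uncertain. Dnajb1, a partner of these chaperones, had 293 CPM in Progesterone 1 and 74.1 in Placebo 1 (ratio 3.96, 2.67 to 5.70), with a ratio of 3.56 in naive CD4 cells (3.10 to 4.07). Fos, an immediate early gene, had 963 CPM in Progesterone 1 and 523 in Placebo 1 (ratio 1.84, 1.51 to 2.23), with a ratio of 1.81 in naive CD4 cells (1.69 to 1.94). The B cell, macrophage and epithelial markers given above were also higher in the members of Progesterone 1 than in those of Placebo 1, and their part in these ratios was not tested.

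**Figure D5:**
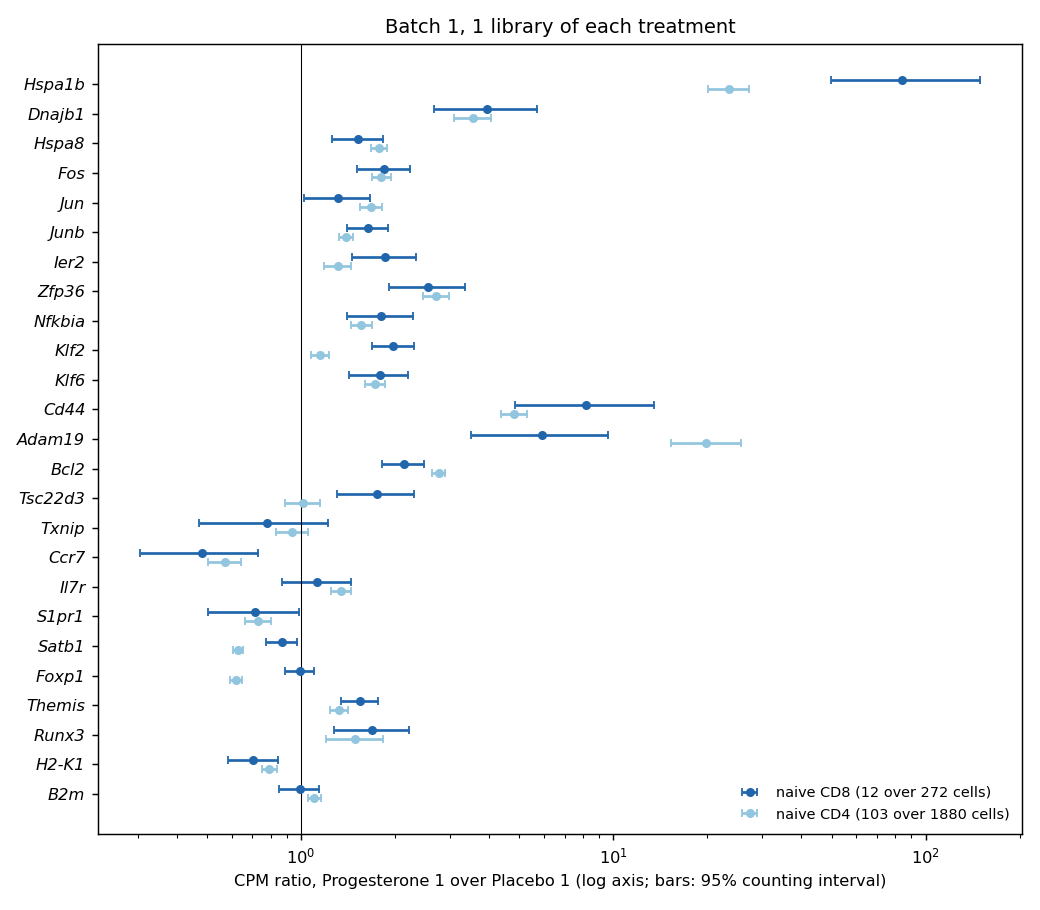
CPM ratio of Progesterone 1 over Placebo 1 for stress, naive and other genes in naive CD8 and naive CD4 T cells on a log axis, with exact 95% counting intervals that hold no variation between animals. Hspa1b stands farthest right in both classes (84.1 and 23.4).

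The remaining 9 of the 10 genes highest by this ratio were Trerf1, Cd44, Chst11, Adam19, Parp14, Tbc1d9b, Rab27a, Dnmbp and Man2a2, at ratios of 4.82 to 10.7. Several rested on few cells: Trerf1 and Chst11 came from 2 members of Progesterone 1 and Cd44 from 3. Adam19, a membrane protease, was found in 9 of 12 members, at 184 CPM in Progesterone 1 and 31.1 in Placebo 1 (ratio 5.93, 3.52 to 9.62), and its ratio in naive CD4 cells was 19.8 (15.3 to 25.7). The lowest genes had no UMI in Progesterone 1. Pdss2, which makes the side chain of coenzyme Q, had 272 UMIs in Placebo 1 and was at least 4.31-fold lower. In all, 15 genes were at 0 by this rule, and the number of genes that met its UMI minimum is not given. The members held only 119373 UMIs in Progesterone 1, against 2510036 in Placebo 1.

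Progesterone's own receptor was hardly detected. Pgr had 1 UMI over all members, in Placebo 1, and none in the 12 members of Progesterone 1, where the limit for a count of 0 is 25.1 CPM. Nr3c1, the glucocorticoid receptor, which progesterone can bind, had 335 CPM in Progesterone 1 and 235 in Placebo 1 (ratio 1.43, 1.01 to 1.97). Of 7 tested receptor and binding protein genes, none passed between naive CD8 and naive CD4 cells, Nr3c1 with a log2 ratio of -0.58 ± 0.21 (edgeR adjusted p = 0.149). Among shared target genes of these receptors, Tsc22d3 had 461 CPM in Progesterone 1 and 264 in Placebo 1 (ratio 1.75, 1.30 to 2.30), with a ratio of 1.01 in naive CD4 cells (0.887 to 1.15). Fkbp5 had no UMI in Progesterone 1, against 47.4 CPM in Placebo 1, at least 1.89-fold lower.

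A fit over the 4 libraries with members, with batch as a covariate and 1 residual degree of freedom, was added after the data were seen. Of 1460 genes tested 1 passed (0.0685%), Hspa1b, higher in progesterone libraries (log2 ratio 6.01 ± 1.05 SE, edgeR adjusted p = 1.85e-05). In edgeR fits that had no batch term, the call was lost without Placebo 1 (log2 ratio 3.91, adjusted p = 0.999), without Progesterone 1 (log2 ratio 4.78, adjusted p = 0.106) and without Placebo 2 (log2 ratio 5.79, adjusted p = 0.9999). It was kept without Progesterone 2 (log2 ratio 6.29, edgeR adjusted p = 2.02e-13). Libraries of 2 and 7 cells carry 2 of the 4 values.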

How the data were processed

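Summed UMI counts of 5 droplet libraries (3 progesterone, 2 placebo) were analysed, with 23409215 to 204786073 UMIs each. The deposited matrices hold raw UMI counts per gene and barcode, made with Cell Ranger 8.0.1 per the file headers; the submitters' processing notes name version 7.0.0 and the mm10 build. No column was left out, and mitochondrial genes are not in the matrices.

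The members, gene lists and comparisons were chosen with earlier results of these data known. Counts were summed per library and class where a class had at least 10 cells. Classes were compared with edgeR 4.0.16 (R 4.3.3; quasi-likelihood, edgeR's filter on low counts, TMM, Benjamini-Hochberg adjustment, threshold 0.05) with the library as a block, since both classes come from the same library. The SE beside a log2 ratio was derived as its absolute value divided by the square root of edgeR's F statistic. DESeq2 1.42.0, no filter, at least 3 cells, no block and removal of cells with markers of another lineage were alternatives. Shares and Poisson ratios carry exact 95% intervals (SciPy 1.17.1), which cover counting error only, and a count of 0 is read as at most 3. Doublets were treated only by the gates and that alternative. The scripts were tested on simulated counts.

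Genes were named by rule: the rule's genes; the 10 highest and 10 lowest log2 ratios among called genes with one direction in all libraries and at least 50 UMIs; for treatment, the 10 highest and lowest ratios of at least 2; up to 4 called genes a list; steroid receptor genes; the 10 most variable genes. Other genes in the text come from the lists, or, as Klf2, Fos and Phactr2, were chosen after their values were seen. Some genes the rule names are not reported here.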

Additional observations from a re-analysis of the deposited data

How the results depend on the processing

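The number of members, 293, was 44 with each cell thinned to 1500 UMIs, 517 with at most 1 UMI of Ccl5 and Nkg7, and 723 with Ccl5 at 0 and any Nkg7, the last chosen after seeing the data. The share of members with a UMI in Placebo 1 was 72.1% for Themis and 41.2% for Ccr7 after thinning, and 95.6% and 89.7% without it. Against the Ccl5 and Nkg7 cells, 20 genes were called. There were 85 with no filter on low counts, 79 without doublets and 0 with no replicate block. Leaving out a library gave 0 (without Placebo 1) and 19 (without Progesterone 1). Leaving out Placebo 2 only repeats the main fit, which it did not enter, and is no check. Against naive CD4 cells, 181 were called, 50 with DESeq2 and 1 with no replicate block. Leaving out a library gave 48 (without Placebo 1) and 103 (without Progesterone 1). Here too the fit without Placebo 2 is the main fit again. Against the Ccl5 cells, 156 genes were higher and 203 lower in naive CD8 cells, 33 and 71 with DESeq2, and 27 and 81 with no replicate block. The treatment fit called 1 gene, 4 with no filter (Hspa1b, S100a4, Zdhhc2 and Gm1604b) and 0 to 2 when each library was left out. The cause of these changes was not tested, and in the class comparisons no named gene that could be fitted changed direction. The difference in the naive share of CD8 cells, -20.2 points, was -19.8 points with no replicate block (exact permutation p = 0.3) and -30.2 to -10.2 points when each library was left out; other choices of cells gave -41.6 to -12.9 points. The fits that leave out a library were made at 3 cells or more and were added after seeing the data, since 2 libraries less 1 leave no replicate. Fits on thinned sums were not run, since Progesterone 1 kept 2 members. Depth limits batch 2, with 9 members.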
